A study of Mus musculus with 24 samples.

Results

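The tubulin genes followed here are 10 of the 54532 genes in the deposited table: the α-tubulins Tuba1a, Tuba1b, Tuba1c and Tuba4a and the β-tubulins Tubb2a, Tubb2b, Tubb3, Tubb4b, Tubb5 and Tubb6. They were picked by gene symbol as a family, because Tubb3 RNA was already known to be lower with TGF-β1 in these data. Every comparison of TGF-β1 with no treatment is therefore given as a description, without a p-value. All 10 members passed the filter on low counts, by which 14261 genes were tested. The study grew macrophages from the tibial marrow of C57BL/6 mice aged 2 to 3 months, in CSF-1 after a first day with IL-3 medium, starved them of serum for about 16 h, and sequenced their polyadenylated RNA. MyS3KO cells carry floxed Smad3 alleles and LyzM-Cre, and Smad3fl/fl cells carry the same alleles without Cre. MyS2KO cells carry floxed Smad2 alleles and LyzM-Cre, and Smad2fl/fl cells are their controls. Each genotype was sampled after 4 h with TGF-β1 at 10 ng/ml and untreated, with 3 libraries in each of the 8 groups. LyzM-Cre is expressed from a lysozyme gene in myeloid cells, so recombination is limited to the cells and times at which that gene is on. The labels do not say whether the 3 libraries of a group came from separate animals, and the library protocol speaks of 8 libraries where 24 samples are described, so p-values here measure the spread between libraries only.

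Microtubules are built from dimers of one α- and one β-tubulin, and mammals encode each partner in several isotypes that differ mainly in the acidic tail at the end of the chain. The isotypes co-assemble, and their proportions differ between cell types. Tubb3 is the classical neuronal β-tubulin, Tubb6 is a widely expressed isotype known for its effect on microtubule stability, and Tubb5, Tuba1b and Tuba1c supply most of the tubulin of dividing and haematopoietic cells. Cells also set tubulin RNA by autoregulation: when free dimers are plentiful, TTC5 binds the start of the nascent tubulin chain on the ribosome and, through SCAPER and the CCR4-NOT deadenylase, has the RNA degraded. Macrophages use microtubules for polarity, phagosome transport and secretion.

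The first 8 codons of the coding sequences are shown because their start encodes the stretch that autoregulation reads; capitals mark the first 4 codons (GENCODE vM21 annotation on GRCm38, 5′ to 3′ on the coding strand).
Tuba1a: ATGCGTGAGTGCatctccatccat
Tuba1b: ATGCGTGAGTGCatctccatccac
Tuba1c: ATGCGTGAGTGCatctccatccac
Tuba4a: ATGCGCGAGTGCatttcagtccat
Tubb2a: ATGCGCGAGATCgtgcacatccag
Tubb2b: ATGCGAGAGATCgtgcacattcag
Tubb3: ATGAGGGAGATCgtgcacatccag
Tubb4b: ATGAGGGAGATCgtgcacctgcag
Tubb5: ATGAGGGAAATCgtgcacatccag

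All 4 α-tubulins shared one reading of the first 4 codons and the 5 β-tubulins shown shared another, with differences at silent positions only. Among the first coding bases of 22033 genes, 9 opened with codons synonymous with those of the α-tubulins and 8 with codons synonymous with those of the β-tubulins.

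The last 20 codons of 7 coding sequences, with the stop codon in capitals, show where isotypes part.
Tuba1c: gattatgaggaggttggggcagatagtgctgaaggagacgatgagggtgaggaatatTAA
Tuba4a: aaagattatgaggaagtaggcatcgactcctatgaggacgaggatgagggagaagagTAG
Tubb2a: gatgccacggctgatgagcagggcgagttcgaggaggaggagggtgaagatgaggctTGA
Tubb2b: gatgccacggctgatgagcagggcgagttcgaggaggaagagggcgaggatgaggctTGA
Tubb3: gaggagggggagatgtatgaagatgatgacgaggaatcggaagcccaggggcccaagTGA
Tubb4b: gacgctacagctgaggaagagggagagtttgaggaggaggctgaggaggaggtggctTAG
Tubb5: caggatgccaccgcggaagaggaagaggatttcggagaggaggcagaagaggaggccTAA

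Over whole coding sequences Tuba1a and Tuba1b were 98.3% identical, Tuba1b and Tuba1c 97.9%, and Tubb2a and Tubb2b 96.5%, whereas Tubb3 was 85.9% identical to Tubb6, the closest of the other 9 members. This bears on the counts. Of all 150-base windows of the transcript, 54.7% in Tuba1a, 57.9% in Tuba1b and 46.7% in Tuba1c also occurred in another annotated transcript, among them those of each other, and 27.9% in Tubb2a and 20.1% in Tubb2b were shared between those 2 genes. Tubb3, Tubb5 and Tubb6 shared no such window with any other transcript. Tuba4a overlaps Stk16 on the opposite strand over 45.7% of its windows, Stk16 itself held 183 to 376 reads a library, and the strand setting of the counting is not given in the sources used here. The split of reads among the Tuba1 genes, between the Tubb2 genes, and between Tuba4a and Stk16 is therefore uncertain.

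On the GRCm38 build of the files, Tuba1a lies at chr15:98949837-98953703 and Tuba1b at chr15:98931425-98934565, both on the minus strand, with Tuba1c nearby at chr15:99029891-99038110 on the plus strand. Tubb2a at chr13:34074274-34078007 and Tubb2b at chr13:34126748-34130466 are neighbours on the minus strand. The other members lie apart: Tuba4a at chr1:75214228-75219865, Tubb3 at chr8:123411424-123422015, Tubb4b at chr2:25222160-25224702, Tubb5 at chr17:35833921-35838306 and Tubb6 at chr18:67390717-67402748. Counts were made per gene, so no exon or UTR is resolved.

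Libraries held 16.9 to 24.9 M counted reads. The cells carried macrophage RNA throughout: all 10 markers were read in every group, led by Adgre1 (the F4/80 antigen) at 8281 to 15908 CPM, and the summed markers reached 16140 to 32407 CPM. Of 10 neuronal markers, 8 had 1 to 27 reads over all 24 libraries, Rbfox3 with 3, Dcx with 1 and Snap25 with 3 among them, but Syp had 702 reads and at least 0.661 CPM in every library, and Elavl4 had 1080 reads and up to 14.6 CPM. Smad3 RNA averaged 184 ± 24.0 CPM in untreated MyS3KO libraries and 424 ± 48.2 CPM in untreated Smad3fl/fl libraries (SD, n = 3 each; log2 change -1.21, adjusted p = 6.91e-06, edgeR), whereas Smad2 RNA was 40.4 ± 2.90 CPM in the untreated libraries labelled MyS2KO and 42.2 ± 2.98 CPM in untreated Smad2fl/fl libraries (adjusted p = 0.924, edgeR's quasi-likelihood test). Smad2 RNA thus gives no check of the label MyS2KO, which here names the libraries so labelled. With TGF-β1, Smad3 RNA averaged 268 ± 19.8 CPM in MyS3KO and 415 ± 23.1 CPM in Smad3fl/fl libraries (SD, n = 3 each). The log2 change was -0.63 (adjusted p = 0.00208, edgeR). Untreated Smad2fl/fl libraries held 41.5 ± 3.97 CPM of Smad3 RNA, below MyS3KO in either state. On the first principal component (32.7% of the variance) the third untreated Smad3fl/fl library, at 6.93, stood apart from the other two, at 63.8 and 68.7. Called differences and isotype shares that use Smad3fl/fl libraries are also given without both Smad3fl/fl libraries numbered 3.

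Levels spanned more than 2 orders of magnitude across the family. Per length, in the deposited FPKM (counts scaled for gene length and library size), Tubb5 had the highest median over the 24 libraries with 152 FPKM, followed by Tuba1b with 101 and Tuba1c with 99.4, Tubb6 with 85.7, Tubb4b with 68.5 and Tubb2a with 42.0 FPKM. Tuba4a followed with 12.5 and Tuba1a with 6.55 FPKM, and Tubb3 and Tubb2b were scarce at 1.67 and 0.596 FPKM. The order near the top rests on the gene length used. With the length column of the table in place of the shorter lengths implied by the deposited FPKM, Tubb6 came first with 85.7 FPKM and Tubb5 had 58.1 FPKM. Tubb3, for which the family was chosen, rested on 1535 reads in all 24 libraries and Tubb2b on 507, so both are read less precisely than the others.

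**Figure D1:**
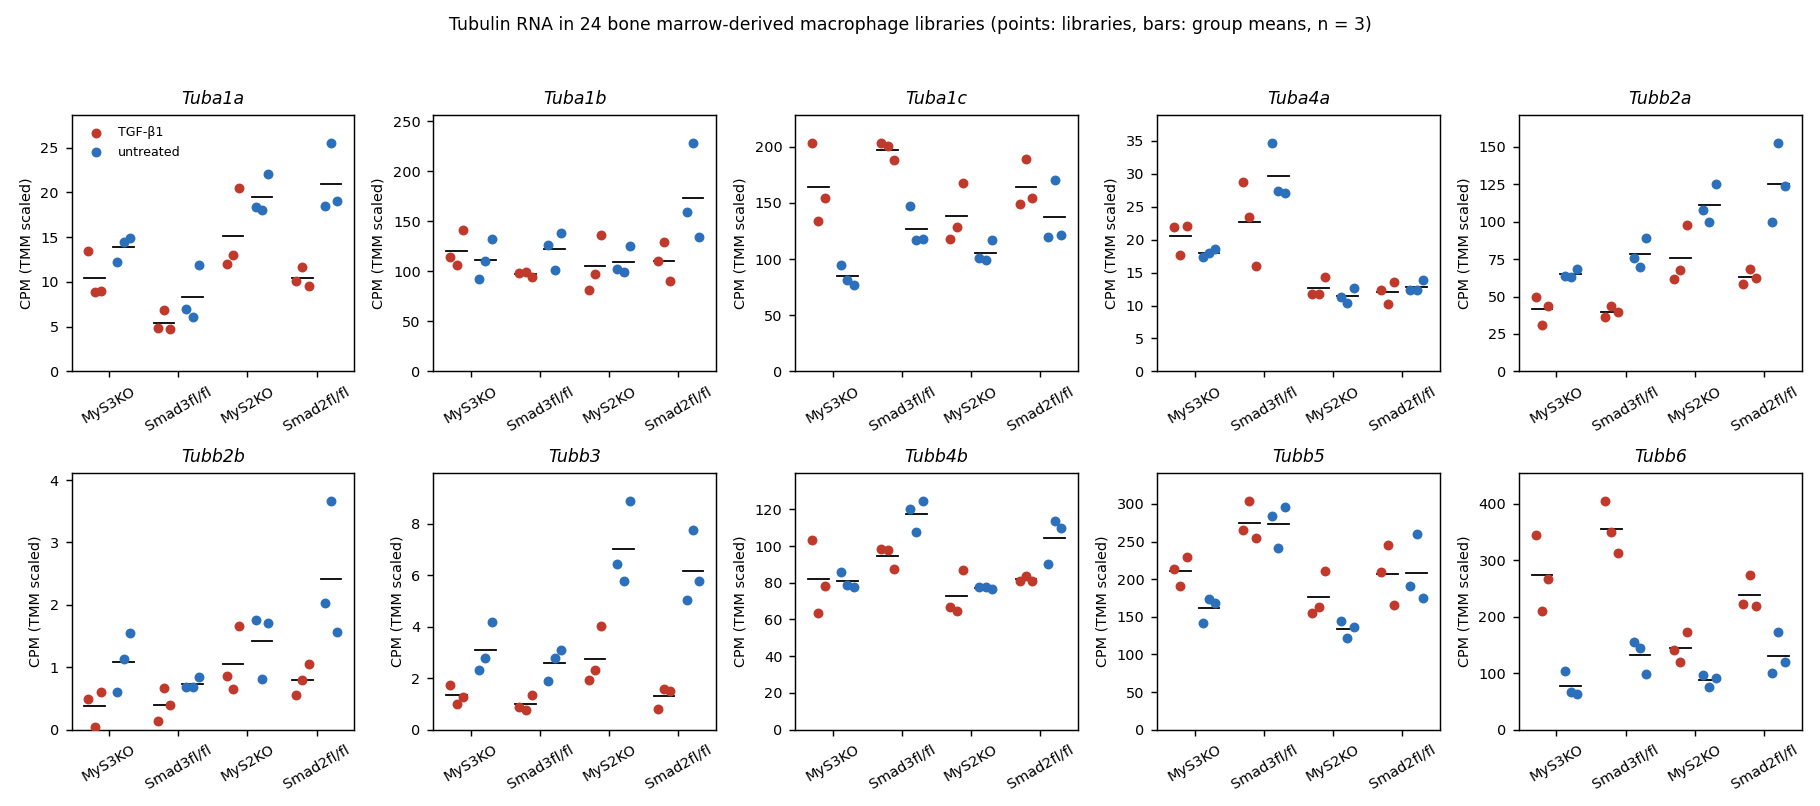
CPM (counts scaled by TMM library totals; linear axes from 0) of each tubulin gene, 1 point per library and 1 bar per group mean, with TGF-β1 left of untreated in each genotype. Tubb3 and Tubb2a lay lower and Tubb6 higher with TGF-β1 in all 4 genotypes, without overlap between the 3 treated and 3 untreated libraries.

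With TGF-β1, tubulin genes moved in opposite directions. Tubb3 and Tubb2a RNA were lower and Tubb6 and Tuba1c RNA higher. Tubb5, the β-tubulin with the highest median FPKM as deposited, had log2 changes of 0.00 in Smad3fl/fl and -0.01 in Smad2fl/fl. In the Cre lines its changes were 0.39 in MyS3KO and 0.40 in MyS2KO. Called at an adjusted p under 0.05 (edgeR) were 4 of 10 members in MyS3KO, where 10% of all tested genes were called, 4 in Smad3fl/fl (12%), 1 in MyS2KO (3.41%) and 5 in Smad2fl/fl (11.1%). The family was picked through this contrast, so these counts describe it and nothing is read from them. In bulk RNA, fewer cells of a type and less RNA per cell cannot be told apart.

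Among the α-tubulins, Tuba1c, one of the main isotypes here, was higher. Its level (CPM, as for all values per library) was 203, 134 and 154 in the TGF-β1 libraries of MyS3KO, against 95.1, 81.2 and 77.2 in the untreated ones. In Smad3fl/fl it was 203, 201 and 188 with TGF-β1, against 147, 117 and 118 untreated. MyS2KO libraries had 117, 128 and 168 with TGF-β1, against 101, 98.8 and 117 untreated, and Smad2fl/fl libraries 149, 189 and 154 with TGF-β1, against 119, 171 and 121 untreated. Treated and untreated libraries did not overlap in MyS3KO and Smad3fl/fl and parted by less than 1 CPM in MyS2KO, while in Smad2fl/fl they overlapped. The log2 changes were 0.95 ± 0.17 in MyS3KO, 0.63 ± 0.17 in Smad3fl/fl, 0.38 ± 0.17 in MyS2KO and 0.26 ± 0.17 in Smad2fl/fl (SE). Without both Smad3fl/fl libraries numbered 3, the Smad3fl/fl change was 0.60 and no longer called.

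Tuba1a, an isotype best known from developing neurons, was lower in the floxed Smad2 genotype, with 10.2, 11.6 and 9.50 CPM in TGF-β1 libraries of Smad2fl/fl, against 18.5, 25.5 and 19.0 CPM in untreated ones. The other genotypes showed overlapping libraries: 13.4, 8.88 and 8.95 with TGF-β1 and 12.3, 14.5 and 14.9 CPM untreated in MyS3KO, and 12.1, 13.0 and 20.5 with TGF-β1 and 18.4, 18.1 and 22.0 CPM untreated in MyS2KO. In Smad3fl/fl the treated libraries held 4.80, 6.82 and 4.70 CPM and the untreated ones 6.94, 6.08 and 11.9 CPM, the third untreated library standing far above the other two. Its log2 change of -0.61 ± 0.25 there became -0.18 without the libraries numbered 3, against -1.01 ± 0.24 in Smad2fl/fl. Tuba1b, the closest relative of Tuba1a and a main α-tubulin of proliferating cells, had a log2 change of -0.66 ± 0.20 in Smad2fl/fl, from 90.7 to 129 CPM with TGF-β1 and 134 to 228 CPM untreated. The change was 0.11 ± 0.20 in MyS3KO, -0.33 ± 0.20 in Smad3fl/fl and -0.05 ± 0.20 in MyS2KO, none of them called. Tuba4a, an α-tubulin gene whose product lacks the usual encoded final residue, was called in no genotype, with log2 changes between -0.38 and 0.19.

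Tubb3, the neuronal β-tubulin, was lower with TGF-β1 in every genotype. MyS3KO libraries had 1.72, 0.992 and 1.28 CPM with TGF-β1, against 2.33, 2.76 and 4.16 CPM untreated. Smad3fl/fl libraries had 0.861, 0.748 and 1.34 CPM with TGF-β1, against 1.88, 2.79 and 3.10 CPM untreated. In both genotypes of the Smad3 line every treated library lay below every untreated one, at low levels. MyS2KO libraries had 1.93, 2.33 and 4.01 CPM with TGF-β1, against 6.42, 5.76 and 8.85 CPM untreated. Smad2fl/fl libraries had 0.795, 1.59 and 1.51 CPM with TGF-β1, against 5.01, 7.74 and 5.76 CPM untreated. The untreated level was higher in the Smad2 line than in the Smad3 line, and the widest gap stood in Smad2fl/fl. The log2 changes were -1.23 ± 0.35 in MyS3KO, -1.40 ± 0.36 in Smad3fl/fl, -1.34 ± 0.33 in MyS2KO and -2.24 ± 0.35 in Smad2fl/fl. Neuronal markers summed to 3.07 to 4.84 CPM with TGF-β1 and 8.88 to 13.8 CPM untreated in MyS3KO, and to 0.951 to 5.67 CPM with TGF-β1 and 1.64 to 15.9 CPM untreated in Smad3fl/fl. The sums were 1.47 to 1.65 CPM with TGF-β1 and 1.15 to 1.76 CPM untreated in MyS2KO, and 0.837 to 1.77 CPM with TGF-β1 and 1.40 to 2.54 CPM untreated in Smad2fl/fl. These sums parted without overlap in MyS3KO and overlapped in the other 3 genotypes. They rest mostly on Elavl4, with 1080 reads over all libraries, and Syp, with 702, while no other neuronal marker had more than 27. With TGF-β1, 4, 2, 6 and 5 of the 10 genes were at 0 reads in MyS3KO, Smad3fl/fl, MyS2KO and Smad2fl/fl, and untreated 8, 2, 8 and 6. Macrophage markers summed to 17621 to 25237 CPM with TGF-β1 and 19812 to 23261 CPM untreated in MyS3KO, to 16140 to 20109 CPM with TGF-β1 and 17644 to 29747 CPM untreated in Smad3fl/fl, to 19395 to 20832 CPM with TGF-β1 and 21206 to 24054 CPM untreated in MyS2KO, and to 23712 to 25033 CPM with TGF-β1 and 27831 to 32407 CPM untreated in Smad2fl/fl. Among the marker lists, Csf1r, the CSF-1 receptor, rose in MyS3KO (0.57 ± 0.17), Cd14, an endotoxin co-receptor, fell in Smad3fl/fl (-0.67 ± 0.17) and Smad2fl/fl (-0.74 ± 0.17), Itgam, an integrin, fell in Smad3fl/fl (-0.39 ± 0.12), and Cdk1, a cell cycle kinase, fell in Smad2fl/fl (-0.78 ± 0.24). Without the libraries numbered 3, neither Cd14 nor Itgam was called in Smad3fl/fl, and Csf1r was called higher there. The part of these markers in the Tubb3 difference was not tested. Without both Smad3fl/fl libraries numbered 3, the Smad3fl/fl change of Tubb3 was -1.54. Ordered by group mean, Tubb3 ran from 7.01 ± 1.63 CPM in untreated MyS2KO and 6.17 ± 1.41 in untreated Smad2fl/fl, which overlapped, through 3.08 ± 0.961 in untreated MyS3KO, 2.76 ± 1.10 in TGF-β1-treated MyS2KO and 2.59 ± 0.637 in untreated Smad3fl/fl. These last 3 lay below the first 2 and overlapped one another. The lowest 3 groups were the TGF-β1-treated ones of MyS3KO with 1.33 ± 0.365, Smad2fl/fl with 1.30 ± 0.437 and Smad3fl/fl with 0.984 ± 0.316 CPM (SD, n = 3 each), which overlapped one another and lay below the rest.

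Tubb2a, a β-tubulin well known from brain that is far more abundant than Tubb3 per length, was lower as well. It stood at 49.8, 30.9 and 43.7 CPM with TGF-β1 in MyS3KO, against 63.9, 63.0 and 68.6 CPM untreated, and at 36.4, 43.8 and 39.4 CPM with TGF-β1 in Smad3fl/fl, against 75.9, 69.7 and 89.1 CPM untreated. In MyS2KO it was 61.9, 67.6 and 97.5 CPM with TGF-β1, against 107, 99.7 and 125 CPM untreated, and in Smad2fl/fl 58.1, 68.6 and 62.5 CPM with TGF-β1, against 99.7, 152 and 124 CPM untreated. No treated library reached an untreated one of its genotype, although in MyS2KO the third treated library, at 97.5 CPM, came close to the lowest untreated one, at 99.7 CPM. Log2 changes were -0.65 ± 0.18 in MyS3KO, -0.97 ± 0.18 in Smad3fl/fl, -0.55 ± 0.18 in MyS2KO and -0.99 ± 0.18 in Smad2fl/fl, all called except that in MyS2KO. Without the libraries numbered 3 the Smad3fl/fl change was -0.87. Tubb2b, its near-identical neighbour, had at most 3.66 CPM in any library and negative log2 changes of -0.42 to -1.59, none called.

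Tubb6 was higher with TGF-β1 in every genotype. MyS3KO libraries had 345, 211 and 267 CPM with TGF-β1, against 103, 66.4 and 63.4 CPM untreated. Smad3fl/fl libraries had 404, 350.4 and 314 CPM with TGF-β1, against 156, 144 and 98.1 CPM untreated. Over both genotypes of the Smad3 line the lowest treated library, at 211 CPM, lay above the highest untreated one, at 156 CPM. MyS2KO libraries had 142, 120.1 and 174 CPM with TGF-β1, against 96.2, 75.0 and 91.1 CPM untreated, and Smad2fl/fl libraries 223, 274 and 219 CPM with TGF-β1, against 100.1, 173 and 119.8 CPM untreated. The 2 groups of each genotype did not overlap. The log2 changes were 1.82 ± 0.23 in MyS3KO, 1.43 ± 0.23 in Smad3fl/fl, 0.73 ± 0.23 in MyS2KO and 0.87 ± 0.23 in Smad2fl/fl, again called in all but MyS2KO, and 1.32 in Smad3fl/fl without the libraries numbered 3. Tubb5 had log2 changes of 0.39 ± 0.16 in MyS3KO, 0.00 ± 0.16 in Smad3fl/fl, 0.40 ± 0.16 in MyS2KO and -0.01 ± 0.16 in Smad2fl/fl. Its treated libraries lay above the untreated ones without overlap in MyS3KO and MyS2KO, and overlapped them in Smad3fl/fl and Smad2fl/fl. Its sign in Smad3fl/fl and in Smad2fl/fl turned under 3 other settings each, with no call. Tubb4b, a broadly expressed isotype also found in cilia, had log2 changes between -0.35 and 0.02. Neither was called in any genotype.

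Treated and untreated libraries did not overlap for 5 members in MyS3KO, 7 in Smad3fl/fl, 5 in MyS2KO and 7 in Smad2fl/fl, where 24.9, 28.4, 18.4 and 33.8% of all tested genes did not overlap. By the rule given below, the library numbers paired treated and untreated samples in MyS2KO. There the first same-numbered pair correlated at 0.154, below the highest differently numbered pair at 0.197. With the number as a block 4 members were called in MyS2KO instead of 1: Tuba1c, Tubb2a, Tubb3 and Tubb6. Over all 14261 tested genes the block called 1032 there instead of 486. The numbers also paired by this rule in Smad3fl/fl. There the block added Tuba4a for 5 members, and 3306 of all tested genes were called instead of 1714. The single call of the unblocked fit, Tubb3, was lost when any one of 3 MyS2KO libraries was left out: the third untreated one, the first treated one or the second treated one. Without the third treated one 2 were called, Tubb2a and Tubb3. The other counts that 1 library moved by over 1.5 times were those of Smad2fl/fl, where 3 members remained called without the second untreated library, of Smad3fl/fl, where 2 remained without the second treated one, and of MyS3KO, where 2 remained without the third untreated or the second treated one. All these counts belong to the contrast through which the family was picked, so they describe it and nothing is read from them.

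**Figure D2:**
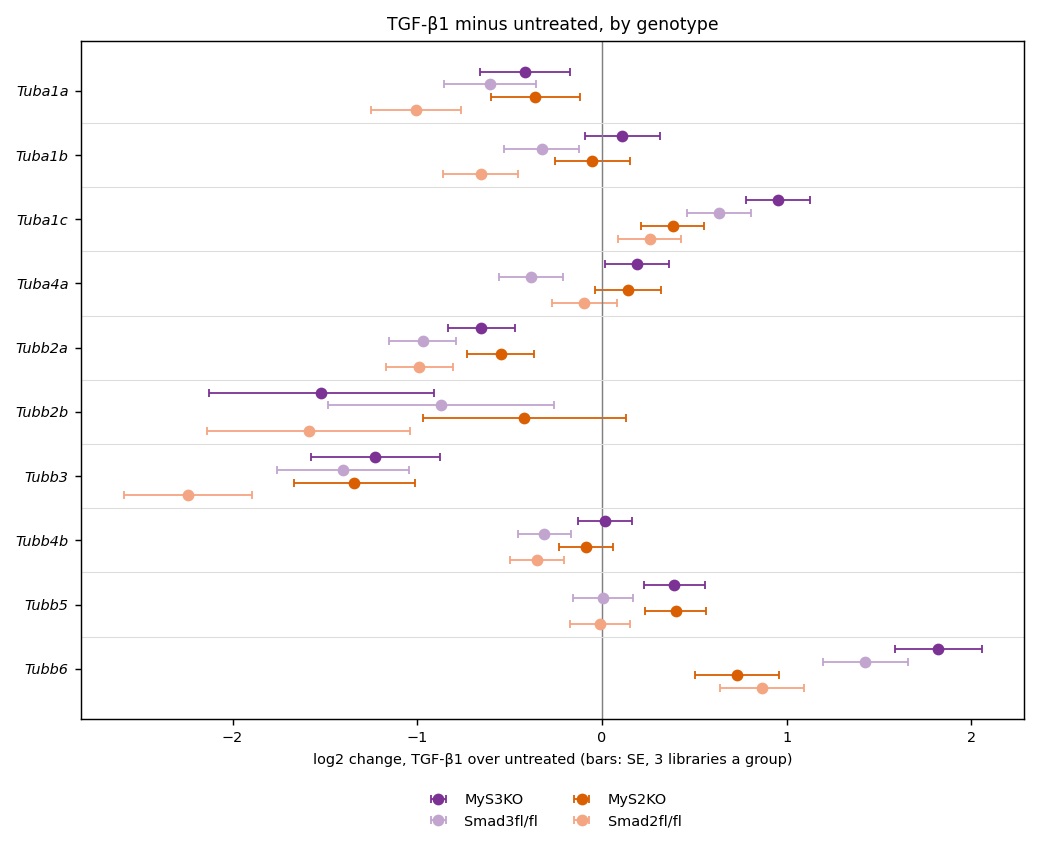
Log2 change of each tubulin gene with TGF-β1 over untreated (horizontal axis; points are the fitted changes, bars their SE, 3 libraries a group) in the 4 genotypes. Tubb3 and Tubb2a lay left of 0 and Tuba1c and Tubb6 right of 0 in all 4, with Tubb3 at -2.24 and Tubb6 at 0.87 in Smad2fl/fl.

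Set against the sum of its family, the make-up of β-tubulin RNA shifted towards Tubb6. Its share of the summed FPKM of the 6 β-tubulins was 37.2 ± 3.16% with TGF-β1 and 15.7 ± 4.43% untreated in MyS3KO, 38.8 ± 3.14% with TGF-β1 and 17.3 ± 4.24% untreated in Smad3fl/fl (SD, n = 3 each). In the Smad2 line the share was 25.0 ± 1.93% with TGF-β1 and 16.9 ± 1.03% untreated in MyS2KO, and 33.4 ± 1.24% with TGF-β1 and 18.0 ± 1.67% untreated in Smad2fl/fl. Without the Smad3fl/fl libraries numbered 3, its mean share there was 39.5% with TGF-β1 and 19.7% untreated. Mean shares of the untreated genotypes lay at 15.7 to 18.0%, and treated ones spread from 25.0 to 38.8%. Tubb2a took the opposite course. It made up 6.13 ± 0.468% with TGF-β1 and 14.4 ± 0.731% untreated in MyS3KO, and 9.70 ± 0.889% with TGF-β1 and 19.0 ± 1.28% untreated in Smad2fl/fl. Tubb3 never exceeded a group mean of 1.80 ± 0.329%, that of untreated MyS2KO, and made up 0.146 ± 0.0591% in TGF-β1-treated Smad3fl/fl, or 0.112% without the library numbered 3. Among α-tubulins the share of Tuba1c was 47.6 ± 5.51% with TGF-β1 and 33.7 ± 5.90% untreated in MyS3KO, 56.9 ± 0.702% with TGF-β1 and 40.1 ± 3.66% untreated in Smad3fl/fl, 47.4 ± 1.63% with TGF-β1 and 39.7 ± 0.658% untreated in MyS2KO, and 51.2 ± 2.42% with TGF-β1 and 36.3 ± 1.93% untreated in Smad2fl/fl. In Smad3fl/fl it was 56.5% with TGF-β1 and 42.3% untreated without the libraries numbered 3. The summed β-tubulin level was 424 ± 44.5 FPKM with TGF-β1 and 280.4 ± 20.3 FPKM untreated in MyS3KO, and 407 ± 52.5 FPKM with TGF-β1 and 380.5 ± 55.5 FPKM untreated in Smad2fl/fl. These shares use the deposited FPKM, and another gene length changes their size.

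**Figure D3:**
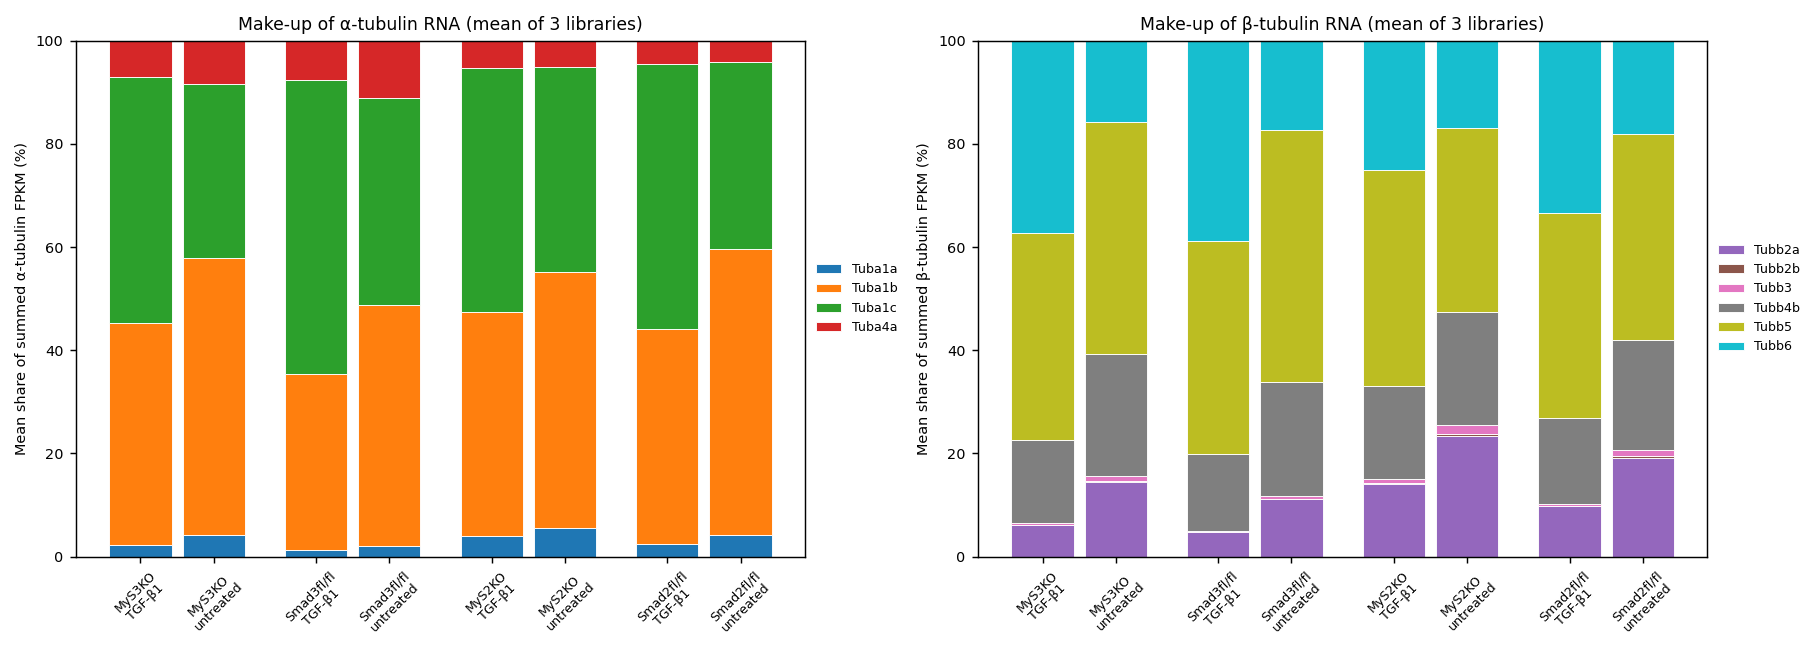
Mean share (percent of the summed FPKM, 3 libraries a group) of each isotype in the α-tubulin RNA (left panel) and β-tubulin RNA (right panel) of the 8 groups, with TGF-β1 left of untreated in each genotype. Tubb6 took 25.0 to 38.8% of β-tubulin FPKM with TGF-β1 and 15.7 to 18.0% untreated, and Tuba1c took 47.4 to 56.9% of α-tubulin FPKM with TGF-β1 and 33.7 to 40.1% untreated.

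The knockout comparisons did not enter the choice of the family. In untreated cells of the Smad3 line, tubulin RNA was mostly lower in MyS3KO than in Smad3fl/fl: Tubb5, Tuba4a, Tubb4b, Tuba1c and Tubb6 fell and Tuba1a rose. These 6 of 10 members were called, 5 lower and 1 higher, where 17.7% of all tested genes were called, 9.38% lower and 8.37% higher (edgeR's quasi-likelihood test, adjusted p under 0.05 over 14261 genes). Tubb3 itself, the gene behind the choice, was not called, with a log2 change of 0.26 ± 0.33 (adjusted p = 0.631, edgeR).

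Tubb5 had 141, 174 and 169 CPM in untreated MyS3KO libraries, against 284, 241 and 296 CPM in untreated Smad3fl/fl libraries. The groups lay well apart, and the log2 change was -0.76 ± 0.16 (adjusted p = 0.00279, edgeR, and 1.45e-04 to 0.0141 over 12 other settings). Tuba4a had 17.4, 18.0 and 18.5 CPM in untreated MyS3KO libraries, against 34.6, 27.3 and 27.1 CPM in untreated Smad3fl/fl libraries. Again no libraries overlapped, and the change was -0.72 ± 0.17 (adjusted p = 0.00635, edgeR, and 9.31e-04 to 0.0485 over the other settings). Tubb5 and Tuba4a were the members called under each of these settings. Tubb4b had 85.8, 78.9 and 77.7 CPM in untreated MyS3KO libraries, against 120.2, 108 and 124 CPM in untreated Smad3fl/fl libraries, again without overlap. Its change was -0.54 ± 0.15 (adjusted p = 0.0130, edgeR, and 0.00432 to 0.0626 over the other settings), and it was not called without the second or the third untreated MyS3KO library.

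Tuba1c, with the untreated values given above, had a log2 change of -0.59 ± 0.17 (adjusted p = 0.0199, edgeR, and 0.00987 to 0.110 over the other settings), and all 3 MyS3KO libraries lay below all 3 Smad3fl/fl libraries. It was not called without the first untreated Smad3fl/fl library or without the second or the third untreated MyS3KO library. Tubb6 overlapped, since its highest untreated MyS3KO library, the first at 103 CPM, exceeded the lowest untreated Smad3fl/fl library, the third at 98.1 CPM. Its change was -0.77 ± 0.23 (adjusted p = 0.0222, edgeR, and 3.49e-04 to 0.119 over the other settings). Tuba1a went the other way, with 12.3, 14.5 and 14.9 CPM in untreated MyS3KO libraries, against 6.94, 6.08 and 11.9 CPM in untreated Smad3fl/fl libraries. The third Smad3fl/fl library lay just below the lowest MyS3KO library. The change was 0.74 ± 0.25 (adjusted p = 0.0396, edgeR, and 0.00260 to 0.193 over the other settings), and 1.11 without both Smad3fl/fl libraries numbered 3. Neither Tubb6 nor Tuba1a was called without the first or the second untreated Smad3fl/fl library, or without the second or the third untreated MyS3KO library. With the 12 libraries of the Smad3 line fitted alone, 3 members were called, namely Tuba1c, Tuba4a and Tubb5. In the fit of all libraries, 3 were called without the first untreated Smad3fl/fl library, and 2, Tuba4a and Tubb5, without the second or without the third untreated MyS3KO library. Without both Smad3fl/fl libraries numbered 3 the same 6 were called as in the full fit, and 23.8% of all tested genes were called. In that reduced fit Tubb5 changed by -0.69, Tuba4a by -0.77, Tubb4b by -0.48, Tuba1c by -0.63 and Tubb6 by -0.93.

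Other features differed between these same libraries. Ribosomal protein RNA made up 1.50 to 2.08% of counted reads in untreated MyS3KO libraries and 0.879 to 1.41% in untreated Smad3fl/fl libraries. Mitochondrially encoded RNA made up 0.826 to 0.968% in untreated MyS3KO libraries and 0.640 to 0.647% in untreated Smad3fl/fl libraries, so neither share overlapped. The 15 proliferation markers summed to 60.4 to 119 CPM in untreated MyS3KO libraries and to 43.1 to 52.3 CPM in untreated Smad3fl/fl libraries. Tpx2 weighed most in these sums, with 22021 reads over all 24 libraries, followed by Mki67 with 4162. The 7 granulocyte markers summed to 11.3 to 18.3 CPM in untreated MyS3KO libraries and 2.72 to 16.2 CPM in untreated Smad3fl/fl libraries, with 1 granulocyte gene at 0 reads in MyS3KO and 0 in Smad3fl/fl. Of these lists, the proliferation marker Top2a was called higher (1.90 ± 0.51). Of 10 macrophage markers, Mertk (0.53 ± 0.17) and Cd68 (0.52 ± 0.15) were called higher and Itgam lower (-0.37 ± 0.12), and without the Smad3fl/fl libraries numbered 3, 4 were called higher and 0 lower. With TGF-β1, Cd68 (0.71 ± 0.15), Fcgr1 (0.69 ± 0.21), Top2a (2.11 ± 0.52) and Kif11 (1.12 ± 0.38) were called higher in MyS3KO and Ptprc (-0.98 ± 0.27) and Bub1 (-1.81 ± 0.54) lower, and ribosomal protein RNA made up 1.72 to 2.02% of reads in MyS3KO and 0.958 to 1.14% in Smad3fl/fl. The part of these in the tubulin differences was not tested.

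With TGF-β1, Tuba1a was the called member of the Smad3 line, where 28.2% of all tested genes were called. It had 13.4, 8.88 and 8.95 CPM in TGF-β1-treated MyS3KO libraries, against 4.80, 6.82 and 4.70 CPM in TGF-β1-treated Smad3fl/fl libraries. The MyS3KO libraries were all higher, and the log2 change was 0.93 ± 0.25 (adjusted p = 0.00993, edgeR, and 8.23e-04 to 0.0580 over the other settings), or 0.83 and still called without the Smad3fl/fl libraries numbered 3. Without the first treated MyS3KO library it was 0.72 and not called, and Tubb4b was called in its place at a log2 change of -0.40. Tubb5 had 213, 192 and 229.9 CPM in TGF-β1-treated MyS3KO libraries, against 265, 303 and 255 CPM in TGF-β1-treated Smad3fl/fl libraries, without overlap. Its change of -0.38 ± 0.16 was not called (adjusted p = 0.0877, edgeR). The log2 changes of Tuba4a (-0.15 ± 0.17), Tubb4b (-0.21 ± 0.15), Tuba1c (-0.27 ± 0.17) and Tubb6 (-0.38 ± 0.23) were smaller than in untreated cells. No difference between the treated and untreated knockout effects was called for these genes. Libraries did not overlap for 6 members in untreated cells and for 3 with TGF-β1, where 25.7% and 46.4% of all tested genes did not.

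In the Smad2 line no member was called between the libraries labelled MyS2KO and Smad2fl/fl, where 0.0701% of tested genes were called untreated and 0.421% with TGF-β1 (edgeR). At an unadjusted p under 0.05 there were 5 members untreated and 3 with TGF-β1. Of all tested genes, 1254 (8.79%) untreated and 1313 (9.21%) with TGF-β1 had such a p. DESeq2 called 1 member untreated, Tubb5, and 0 with TGF-β1. Tubb5 had 144, 121 and 136 CPM in untreated MyS2KO libraries, against 190.4, 259.9 and 174 CPM in untreated Smad2fl/fl libraries. All MyS2KO libraries lay below, with a log2 change of -0.64 ± 0.16 (adjusted p = 0.188, edgeR, and 0.0246 to 0.808 over 12 other settings). Tuba1b had 102, 99.5 and 125 CPM in untreated MyS2KO libraries, against 159, 228 and 134 CPM in untreated Smad2fl/fl libraries, and a change of -0.67 ± 0.20 (adjusted p = 0.286, edgeR). The second Smad2fl/fl library was the highest of all 24. With TGF-β1, Tubb6 differed by -0.72 ± 0.23 (adjusted p = 0.215, edgeR), and Tubb3 by 1.09 ± 0.35 (adjusted p = 0.222, edgeR), its MyS2KO libraries lying above all Smad2fl/fl libraries. Untreated, Tubb6 (-0.58 ± 0.23), Tubb4b (-0.44 ± 0.15) and Tuba1c (-0.38 ± 0.17) were also lower in MyS2KO without overlap, and none was called. Untreated changes were negative for 9 members and positive for 1. With TGF-β1 they were negative for 5 and positive for 5. Groups did not overlap for 5 members untreated and 3 with TGF-β1, where 15.2 and 19.4% of all tested genes did not.

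**Figure D4:**
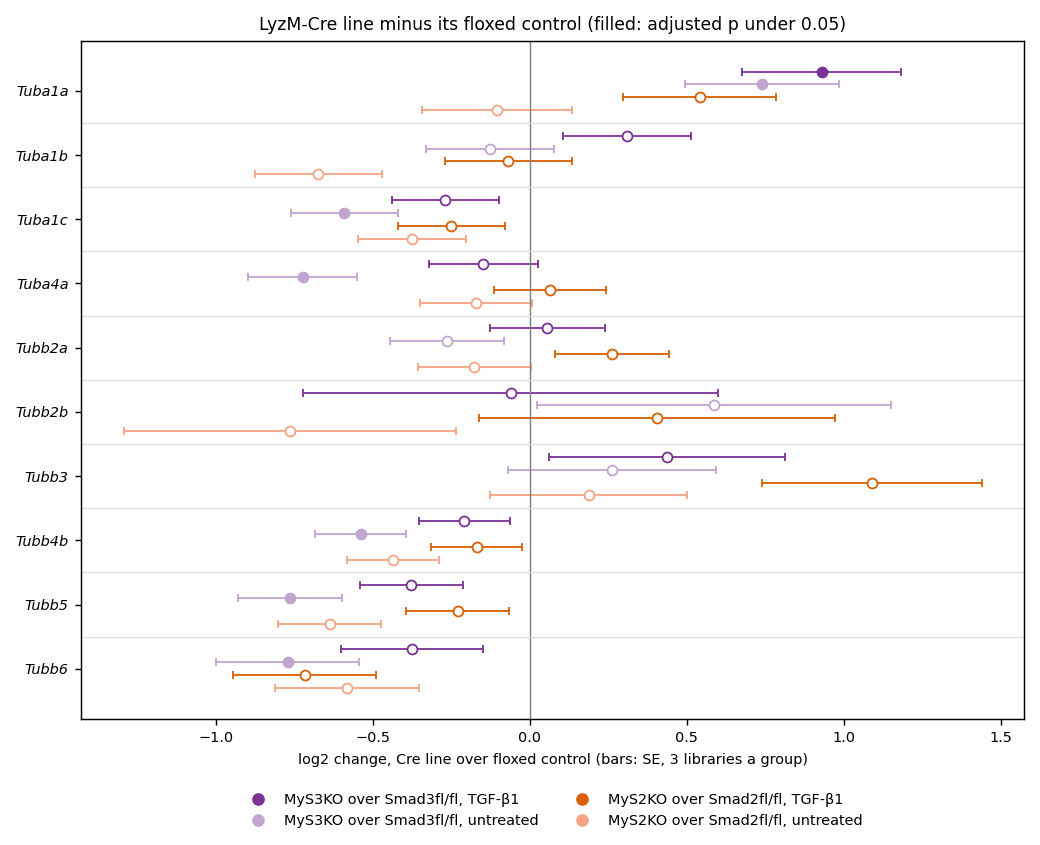
Log2 change of each tubulin gene in each LyzM-Cre line over its floxed control (horizontal axis; points are fitted changes, bars their SE, 3 libraries a group), with and without TGF-β1; filled points have an adjusted p under 0.05 by edgeR. Filled points are the 6 members called in untreated MyS3KO over Smad3fl/fl and Tuba1a in the TGF-β1-treated comparison.

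Whether the response to TGF-β1 differed between a Cre line and its control was tested as an interaction: the log2 change with TGF-β1 in the Cre line less the same change in its control. None was called for the family in either line (edgeR), where 0.021% of all tested genes were called in the Smad3 line and 0.00701% in the Smad2 line. DESeq2 also called 0 members. An unadjusted p under 0.05 was reached by 1 member in each line, Tuba4a in the Smad3 line and Tuba1b in the Smad2 line. Of all tested genes, 917 (6.43%) in the Smad3 line and 489 (3.43%) in the Smad2 line reached it. The estimate for Tuba4a was 0.58 ± 0.25 (adjusted p = 0.728, edgeR), its response being 0.19 ± 0.17 in MyS3KO and -0.38 ± 0.17 in Smad3fl/fl. For Tuba1b it was 0.60 ± 0.29 (adjusted p = 1.00, edgeR), from a response of -0.05 ± 0.20 in MyS2KO and -0.66 ± 0.20 in Smad2fl/fl. For Tubb3, given as a description only, the estimate was 0.18 ± 0.50 in the Smad3 line and 0.90 ± 0.47 in the Smad2 line. These counts show no call and do not show that the responses were alike.

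The floxed controls of the lines were not alike. Untreated Smad3fl/fl libraries held more Tuba4a and less Tuba1a, Tubb2a, Tubb2b and Tubb3 than untreated Smad2fl/fl libraries, and these 5 of 10 members were called, where 33.4% of all tested genes were. Tuba4a had 34.6, 27.3 and 27.1 CPM in untreated Smad3fl/fl libraries, against 12.3, 12.4 and 13.9 CPM in untreated Smad2fl/fl libraries, far apart, with a log2 difference of 1.20 ± 0.18 (adjusted p = 3.64e-05, edgeR, and 1.64e-09 to 8.96e-04 over 12 other settings). Tuba1a had 6.94, 6.08 and 11.9 CPM in untreated Smad3fl/fl libraries, against 18.5, 25.5 and 19.0 CPM in untreated Smad2fl/fl libraries. No libraries overlapped, and the difference was -1.34 ± 0.25 (adjusted p = 3.69e-04, edgeR). Tubb3 differed by -1.25 ± 0.33 (adjusted p = 0.00593, edgeR), with the highest Smad3fl/fl library at 3.10 CPM and the lowest Smad2fl/fl library at 5.01 CPM. Tubb2a differed by -0.68 ± 0.18 (adjusted p = 0.00703, edgeR) and Tubb2b by -1.71 ± 0.55 (adjusted p = 0.0211, edgeR). Without the second untreated Smad2fl/fl library neither Tubb2a, at -0.52, nor Tubb2b, at -1.29, was called, and Tubb2b was also not called without the first or the second untreated Smad3fl/fl library. With TGF-β1, 3 members were called, where 25.3% of all tested genes were: Tuba4a at 0.92 ± 0.18 (adjusted p = 8.16e-04), Tuba1a at -0.94 ± 0.25 (adjusted p = 0.00969) and Tubb2a at -0.66 ± 0.18 (adjusted p = 0.0115, all edgeR). Without the Smad3fl/fl libraries numbered 3, 39.9% of all tested genes were called untreated and 24.9% with TGF-β1. The same 5 members were called untreated, Tuba4a at 1.24, Tuba1a at -1.71, Tubb3 at -1.43, Tubb2a at -0.81 and Tubb2b at -1.85, with Tuba1b added at -0.64. With TGF-β1 the same 3 were called, Tuba4a at 1.10, Tuba1a at -0.86 and Tubb2a at -0.67, with Tubb6 added at 0.65. Libraries of the floxed genotypes did not overlap for 5 members untreated and 6 with TGF-β1, where 38.4 and 50.9% of all tested genes did not. Smad3 RNA, at 424 ± 48.2 CPM in Smad3fl/fl and 41.5 ± 3.97 CPM in Smad2fl/fl untreated, and ribosomal protein RNA, at 0.879 to 1.41% in Smad3fl/fl and 1.93 to 2.07% in Smad2fl/fl untreated, also differed between these groups, as did mitochondrially encoded RNA, at 0.640 to 0.647% in Smad3fl/fl and 0.863 to 1.14% in Smad2fl/fl untreated. Of 10 macrophage markers, 4 were called lower in untreated Smad3fl/fl, among them Lyz2, lysozyme (-1.47 ± 0.38), and Fcgr1, an antibody receptor (-0.95 ± 0.21), and 5 with TGF-β1, Lyz2 by -1.59 ± 0.38 and Fcgr1 by -0.999 ± 0.21. Their sums were 17644 to 29747 CPM in untreated Smad3fl/fl and 27831 to 32407 CPM in untreated Smad2fl/fl. The granulocyte markers S100a8 and S100a9 were called higher in Smad3fl/fl, by 2.31 ± 0.50 and 2.38 ± 0.70 untreated and by 2.93 ± 0.52 and 2.42 ± 0.71 with TGF-β1, and the 7 markers summed to 2.72 to 16.2 CPM in untreated Smad3fl/fl and 1.43 to 2.39 CPM in untreated Smad2fl/fl. Elavl4 averaged 4.88 CPM in untreated Smad3fl/fl and 0.0173 CPM in untreated Smad2fl/fl libraries and was called (7.79 ± 2.51). The neuronal markers summed to 1.64 to 15.9 CPM in untreated Smad3fl/fl, with a median of 2.02 CPM. Elavl4 reached at most 14.6 CPM in any library, so its mean there rests mostly on a single library. Of the proliferation markers, Bub1 was called higher (2.23 ± 0.58 untreated, 3.53 ± 0.61 with TGF-β1), and Aurkb (-2.23 ± 0.83) untreated and Ccnb1 (-2.47 ± 0.81) and Kif11 (-1.10 ± 0.37) with TGF-β1 lower. The part of these in the tubulin differences was not tested. Line, and whatever else differs between the 2 sets of cultures, cannot be told apart.

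Genes around tubulin were followed in lists of its folding, turnover, modification and use. Of the other tubulin genes, 7 of 10 were tested. Tubd1, a centriolar δ-tubulin, fell with TGF-β1 in Smad3fl/fl (-0.77 ± 0.18) and Smad2fl/fl (-0.61 ± 0.18), and Tubb1, the platelet β-tubulin, was lower in untreated MyS3KO than Smad3fl/fl, at 0.839 against 2.19 CPM (-1.36 ± 0.44, adjusted p = 0.0353, edgeR), or -1.17 and not called without the Smad3fl/fl libraries numbered 3. All 21 chaperones and cofactors that fold tubulin and build its dimers were tested. With TGF-β1, 1 was called, Tbcc in MyS3KO (0.74 ± 0.23), and none in the other genotypes. There 2, 0 and 6 had an unadjusted p under 0.05 in Smad3fl/fl, MyS2KO and Smad2fl/fl, beside 24.7, 11.7 and 24.2% of all tested genes. In the Smad3 line 3 were higher in MyS3KO untreated, where 17.7% of all tested genes were called, and 4 were higher and 2 lower with TGF-β1, where 28.2% were. The shares of the list were near these. Tbcd, a cofactor that binds β-tubulin, averaged 19.7 CPM in untreated MyS3KO and 9.37 CPM in untreated Smad3fl/fl libraries (1.08 ± 0.24, adjusted p = 0.00391, edgeR), and the difference with TGF-β1 was 1.42 ± 0.25. Pfdn5, a prefoldin subunit, differed by 1.09 ± 0.28 untreated and 1.41 ± 0.28 with TGF-β1. Vbp1, another prefoldin subunit (-0.98 ± 0.27), and Tbce, a cofactor that binds α-tubulin (-0.68 ± 0.20), were lower in TGF-β1-treated MyS3KO. The median of the 21 genes was 0.00 untreated and 0.17 with TGF-β1, beside -0.03 and 0.01 over all tested genes.

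Of the 12 autoregulation genes, Cnot8, a deadenylase, rose with TGF-β1 in all 4 genotypes, by 0.64 ± 0.12 in MyS3KO, 0.69 ± 0.12 in Smad3fl/fl, 0.51 ± 0.12 in MyS2KO and 0.65 ± 0.12 in Smad2fl/fl. Cnot11, the CCR4-NOT subunit that links SCAPER to the complex, rose in MyS3KO (0.78 ± 0.14) and Smad2fl/fl (0.54 ± 0.13). In all, 2, 1, 1 and 3 of the 12 rose in MyS3KO, Smad3fl/fl, MyS2KO and Smad2fl/fl, and none fell, where 10, 12, 3.41 and 11.1% of all tested genes were called. Ttc5, the factor that recognises nascent tubulin, was not among them. It differed between Cre and floxed cells of the Smad3 line, averaging 3.33 CPM in untreated MyS3KO and 1.02 CPM in untreated Smad3fl/fl libraries (1.71 ± 0.43, adjusted p = 0.00815, edgeR), and 5.21 CPM in TGF-β1-treated MyS3KO and 1.67 CPM in TGF-β1-treated Smad3fl/fl libraries (1.64 ± 0.41, adjusted p = 0.00622, edgeR). Cnot7, another deadenylase, was lower in MyS3KO, with log2 changes of -0.83 ± 0.23 untreated and -0.97 ± 0.23 with TGF-β1. Cnot8 was higher there (0.59 ± 0.12 untreated, 0.54 ± 0.12 with TGF-β1), and Cnot6, also a deadenylase, lower with TGF-β1 (-0.65 ± 0.22). In all, 2 of the 12 were higher and 1 lower in untreated MyS3KO, where 17.7% of all tested genes were called. With TGF-β1, 2 were higher and 3 lower, where 28.2% of all tested genes were called.

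The 16 tested genes listed as modifying tubulin included Folr1, a folate receptor without such a role that stands in the list by mistake. Vash2, a carboxypeptidase that removes the final tyrosine of α-tubulin, rose with TGF-β1 in all 4 genotypes, by 2.00 ± 0.32 in MyS3KO, 1.76 ± 0.31 in Smad3fl/fl, 1.25 ± 0.34 in MyS2KO and 1.00 ± 0.32 in Smad2fl/fl, from untreated means below 1 CPM. Its partner Svbp rose in MyS3KO (0.86 ± 0.21) and Smad3fl/fl (0.81 ± 0.20). Ttll4, a glutamylase, rose in Smad3fl/fl (0.93 ± 0.27, or 0.81 and not called without the libraries numbered 3), and no gene of the list fell. Those that rose numbered 2, 3, 1 and 1 in MyS3KO, Smad3fl/fl, MyS2KO and Smad2fl/fl, where 10, 12, 3.41 and 11.1% of all tested genes were called. Between Cre and floxed cells of the Smad3 line, Folr1 was the called gene untreated (2.84 ± 0.83). With TGF-β1 Folr1 (2.04 ± 0.70) and Sirt2, a tubulin deacetylase (0.46 ± 0.15), were higher and Agtpbp1, which removes glutamates from tubulin, lower (-0.61 ± 0.21). The share of all tested genes called was 17.7% untreated and 28.2% with TGF-β1, above that of the list. Of 17 tested microtubule-associated and plus-end genes, Camsap2, which caps minus ends, rose with TGF-β1 in all 4 genotypes: 1.06 ± 0.25 in MyS3KO, 1.02 ± 0.24 in Smad3fl/fl, 1.29 ± 0.25 in MyS2KO and 1.55 ± 0.25 in Smad2fl/fl. Clasp1, a rescue factor at plus ends, fell in MyS3KO (-0.75 ± 0.14), Smad3fl/fl (-0.83 ± 0.14) and Smad2fl/fl (-0.54 ± 0.14), and no other gene of the list fell. Those that rose numbered 3, 1, 1 and 4 in MyS3KO, Smad3fl/fl, MyS2KO and Smad2fl/fl, where 10, 12, 3.41 and 11.1% of all tested genes were called. Clip2 in MyS3KO (0.79 ± 0.14) and Macf1 in Smad2fl/fl (0.94 ± 0.29) were among them. Without the Smad3fl/fl libraries numbered 3, Camsap2 in Smad3fl/fl was at 0.90 and not called.

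Of the 11 genes of the γ-tubulin ring complex and its anchors, which seed microtubules, 6 were lower in TGF-β1-treated MyS3KO than Smad3fl/fl libraries and 2 in untreated ones, and none was higher. Tubgcp5 averaged 16.8 CPM in TGF-β1-treated MyS3KO and 30.7 CPM in TGF-β1-treated Smad3fl/fl libraries (-0.87 ± 0.24, adjusted p = 0.0105, edgeR), and Akap9, an anchor of the complex, differed by -0.96 ± 0.34 (adjusted p = 0.0374). Untreated, the 2 were Tubgcp2 (-0.63 ± 0.12) and Tubgcp4 (-0.54 ± 0.18), core subunits of the ring. The median over the 11 was -0.37 with TGF-β1 and -0.13 untreated, beside 0.01 and -0.03 over all tested genes, of which 28.2% and 17.7% were called. With TGF-β1 against no treatment, 1 gene was called, Tubgcp5 in Smad2fl/fl (0.84 ± 0.24). Of the 17 microtubule-associated genes, 3 were lower in TGF-β1-treated MyS3KO than Smad3fl/fl libraries, among them Ckap5, a tubulin polymerase (-1.09 ± 0.25, adjusted p = 0.00358, edgeR), and Map1b, a lattice-binding protein that was scarce at 0.200 against 0.922 CPM (-2.17 ± 0.59). In untreated cells Clasp2, a relative of Clasp1, was higher in MyS3KO (0.63 ± 0.15), and Map7d1, a lattice-binding protein that recruits kinesin, was lower (-0.51 ± 0.15), as was Clip2 (-0.53 ± 0.14). Among 7 stathmins and severing enzymes, Stmn1, which binds free tubulin dimers, was higher in TGF-β1-treated MyS3KO, at 1.83 against 0.499 CPM (1.87 ± 0.50, adjusted p = 0.00881, edgeR), and none of the 7 was called with TGF-β1 against no treatment (edgeR), with 1, 1, 0 and 1 at an unadjusted p under 0.05 in MyS3KO, Smad3fl/fl, MyS2KO and Smad2fl/fl in that order. Over all tested genes, 21.6, 24.7, 11.7 and 24.2% had such a p in these genotypes. In the Smad2 line (edgeR), 0 genes of these lists were called between the libraries labelled MyS2KO and Smad2fl/fl, untreated or with TGF-β1, where 10 and 60 of all tested genes were. At an unadjusted p under 0.05 these lists held 1 (folding), 0 (autoregulation), 1 (modification), 0 (γ-tubulin ring), 1 (microtubule-associated), 1 (stathmin and severing) and 1 (other tubulin) genes untreated and 0 (folding), 1 (autoregulation), 0 (modification), 1 (γ-tubulin ring), 2 (microtubule-associated), 0 (stathmin and severing) and 0 (other tubulin) with TGF-β1. Of all tested genes, 8.79% untreated and 9.21% with TGF-β1 had such a p.

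The floxed controls differed in the same lists, so the genes above that part MyS3KO from Smad3fl/fl are given between Smad3fl/fl and Smad2fl/fl as well, where 33.4% of all tested genes were called untreated and 25.3% with TGF-β1 (edgeR). Both comparisons share the Smad3fl/fl libraries. Of the folding genes, 2 were higher and 3 lower in untreated Smad3fl/fl, and 1 was higher and 4 lower with TGF-β1. Tbcd averaged 9.37 CPM in untreated Smad3fl/fl and 24.9 CPM in untreated Smad2fl/fl libraries (-1.41 ± 0.24), beside 19.7 CPM in untreated MyS3KO, and Pfdn5 15.7 CPM in Smad3fl/fl and 46.6 CPM in Smad2fl/fl (-1.57 ± 0.28), beside 33.3 CPM in MyS3KO. In these means Smad3fl/fl was the low group. With TGF-β1 the differences were -1.08 ± 0.24 for Tbcd and -1.70 ± 0.28 for Pfdn5. Vbp1 was higher in Smad3fl/fl (0.96 ± 0.27 untreated, 0.90 ± 0.27 with TGF-β1), as was Tbce untreated (0.67 ± 0.20). Of the autoregulation genes, 3 were higher and 1 lower in untreated Smad3fl/fl, Cnot7 (1.24 ± 0.24) and Cnot2, a scaffold subunit (0.49 ± 0.13), among the higher and Ttc5 the lower (-1.27 ± 0.43), and with TGF-β1 Cnot7 was called (1.00 ± 0.23). Of the modifying genes, 3 were higher and 3 lower untreated, led by Ttll3, a glycylase (1.41 ± 0.25), and Agtpbp1 (0.69 ± 0.21) and by Folr1 (-2.39 ± 0.85) and Svbp (-0.83 ± 0.20), and Ttll3 was called with TGF-β1 (1.06 ± 0.24). Of the γ-tubulin ring genes, 4 were higher and 0 lower in Smad3fl/fl in either state, with medians of 0.46 untreated and 0.31 with TGF-β1, beside 0.07 and 0.01 over all tested genes. Tubgcp4 differed by 0.86 ± 0.18 untreated and 0.74 ± 0.18 with TGF-β1, Mzt1, a small ring subunit, by 0.58 ± 0.17 untreated and Akap9 by 1.05 ± 0.34 with TGF-β1. Of the microtubule-associated genes, 4 were higher and 3 lower untreated, led by Macf1, a linker to actin (1.17 ± 0.29), and Camsap2 (1.04 ± 0.25) and by Clasp2 (-0.61 ± 0.15) and Mapre2, an end-binding protein (-0.56 ± 0.12). With TGF-β1, 3 were higher and 4 lower, led by Ckap5 (1.05 ± 0.25) and Macf1 (0.83 ± 0.28) and by Mapre2 (-0.64 ± 0.12) and Clasp2 (-0.60 ± 0.15). Stmn1 was lower in Smad3fl/fl (-1.80 ± 0.48 untreated, -1.54 ± 0.50 with TGF-β1).

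Without both Smad3fl/fl libraries numbered 3, the calls between MyS3KO and Smad3fl/fl numbered 4 higher and 2 lower folding genes untreated and 3 higher and 2 lower with TGF-β1, where 23.8% and 26.5% of all tested genes were called. The autoregulation counts and the 6 lower γ-tubulin ring genes with TGF-β1 stood as before, and 3 ring genes were lower untreated. Microtubule-associated genes numbered 1 higher and 5 lower untreated, and 3 lower with TGF-β1. Of the modifying genes, Folr1 untreated (2.35) and Agtpbp1 with TGF-β1 (-0.57) were not called, while 1 was higher and 2 lower untreated. Tbcd was at 1.50 untreated and 1.56 with TGF-β1, and Pfdn5 at 1.71 and 1.48. Between the floxed controls, 39.9% of all tested genes were called untreated and 24.9% with TGF-β1. Untreated, 3 folding genes were higher and 6 lower, and 5 ring genes were higher and 1 lower. Folr1 (-1.90), Ttll4 (-0.60), Cdk5rap2 (0.31), Cnot1 (0.33) and the marker Aurkb (-2.08) were not called there. With TGF-β1, Map1s (-0.49), Clasp1 (-0.37) and the marker Kif11 (-1.03) were not called between the floxed controls, nor was Kif11 (1.03) between MyS3KO and Smad3fl/fl.

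The genes whose level followed Tubb3 most closely were Mapkapk2 (Pearson r = 0.951), a kinase downstream of p38, Myo1g (0.941), a haematopoietic class I myosin, Mtmr14 (0.933), a phosphoinositide phosphatase, Atp6v1b2 (0.931), a subunit of the lysosomal proton pump, and Rilpl2 (0.930), a Rab effector. They were taken as the 5 highest of 14251 other genes by correlation of log2 CPM over the 24 libraries. The libraries share treatment, line and scaling, so the values describe a likeness in pattern and no more. Mapkapk2 averaged 277 CPM with TGF-β1 and 679 CPM untreated in Smad2fl/fl. Within groups, after the group means were removed, the correlation with Tubb3 was 0.744 for Mapkapk2 and 0.598 to 0.79 for the other 4. Of the members, Tubb2a was the most like Tubb3 (r = 0.902), at rank 19 of all tested genes, followed by Tuba1a (0.812) and Tubb2b (0.787), and Tubb6 the least (-0.73). Tubb2a and Tubb2b share sequence windows with each other and none with Tubb3.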

How the data were processed

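Polyadenylated RNA of 24 libraries (8 groups of 3) was sequenced as 150-base paired reads, per the labels' protocols. The authors deposited a count and an FPKM per gene and library; the submitters' processing notes name TopHat2 2.0.9, Cufflinks 2.1.1, HTSeq 0.6.1, mm10 and GRCm38.p6. The sources used here do not name the strand setting or counting mode. The deposited FPKM imply gene lengths within 1% of the table's own length column for 11.6% of 9333 well-covered genes.

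The counts (16.9 to 24.9 M a library) were modelled in R 4.3.3 by edgeR 4.0.16, with TMM scaling, filterByExpr over the 8 groups, 1 mean per group over all 24 libraries, the quasi-likelihood test and Benjamini-Hochberg adjustment over 14261 genes, with calls at 0.05. CPM use TMM-scaled totals, and log2 CPM for correlations a prior count of 2. The median biological coefficient of variation was 21.2%, which with 3 libraries a group sets the precision. No replicate pair agreed within sampling noise (smallest chi-square per degree of freedom 6.24). The fit was tested on simulated data. Figures and sequence look-ups used Python 3.11.15, and sequences came from GENCODE vM21 transcripts.

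The members and lists were chosen with earlier results of these data known. The text names all 10 members, in each other list, markers included, the 2 called genes with the largest change in each direction of a comparison, other called genes where they pair with these, any other tested tubulin gene that was called, and the 5 genes most correlated with Tubb3. Alternatives were DESeq2 1.42.0, its size factors, no filter on low counts, the line alone, a replicate block, each library left out, and both Smad3fl/fl libraries numbered 3 left out; FPKM recomputed with the length column, and the other lists and shares without those Smad3fl/fl libraries, were added after the data were seen. Library numbers count as pairing where every same-numbered pair of treated and untreated libraries had deviations from the group means correlated over 0.1. This held in MyS2KO (0.15, 0.22 and 0.41) and Smad3fl/fl (0.45, 0.34 and 0.33) and in no other comparison. The rule sets no bound on differently numbered pairs, which reached 0.197 in MyS2KO, above its first pair, and -0.0921 in Smad3fl/fl. In Smad2fl/fl the same-numbered pairs correlated at 0.0465, 0.135 and 0.159. All lay above its highest differently numbered pair, at 0.0384, so the rule does not exclude pairing there. In MyS3KO they correlated at 0.414, 0.0439 and 0.287, and the highest differently numbered pair at 0.285. Protein sequences and promoters were not used here. The coding ends of Tuba1a and Tuba1b, and 1 gene that the naming rule selects, are not reported here.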

Additional observations from a re-analysis of the deposited data

How the results depend on the processing

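Counts for TGF-β1 over untreated describe the contrast through which the family was picked, and nothing is read from them. Counts of called members (edgeR, adjusted p under 0.05) stayed within 1.5 times of those reported except as follows. Without the filter on low counts there were 2 instead of 1 for TGF-β1 in MyS2KO, 2 instead of 0 for untreated MyS2KO over Smad2fl/fl (Tuba1b and Tubb5) and 1 instead of 0 for the TGF-β1-treated pair (Tubb6). DESeq2 gave 1 for untreated MyS2KO over Smad2fl/fl (Tubb5) and 5 instead of 3 for TGF-β1-treated Smad3fl/fl over Smad2fl/fl. Fitting the line alone gave 2 for TGF-β1 in MyS2KO and 3 instead of 6 for untreated MyS3KO over Smad3fl/fl. With the replicate block, TGF-β1 in MyS2KO had 4. The block, where numbers pair by the rule above (MyS2KO and Smad3fl/fl), also added Tuba4a in Smad3fl/fl. In the genotypes where the rule did not hold, the block gave 7 in Smad2fl/fl and 5 in MyS3KO. It gave 5 for untreated MyS3KO over Smad3fl/fl, losing Tuba1a, and the reported counts elsewhere. Leaving out 1 library at a time gave 2 to 4 for TGF-β1 in MyS3KO, 2 to 4 in Smad3fl/fl, 0 to 2 in MyS2KO and 3 to 4 in Smad2fl/fl, 2 to 6 for untreated MyS3KO over Smad3fl/fl and 1 with TGF-β1, 4 to 6 for untreated Smad3fl/fl over Smad2fl/fl and 3 to 4 with TGF-β1, and 0 for the Smad2 knockout comparisons and the interactions. Of 1560 member values under other settings, 1437 kept sign and call, 46 lost and 32 gained a call, 45 changed sign without being called in either fit, and no called value changed sign. Over all genes, calls in untreated MyS2KO over Smad2fl/fl numbered 10, against 161 without the filter, 101 by DESeq2 and 21 with the line alone; with TGF-β1 they numbered 60, against 313, 214 and 142. Calls with TGF-β1 under the block numbered 2749 in MyS3KO, against 1428 without it, 3306 against 1714 in Smad3fl/fl, 1032 against 486 in MyS2KO and 3237 against 1584 in Smad2fl/fl. For untreated MyS3KO over Smad3fl/fl the line alone gave 1526 calls, against 2531. The cause of these shifts was not tested. With FPKM from the length column, 49 of 80 group levels moved by more than their spread. Depth limits Tubb3 and Tubb2b, with 1535 and 507 reads in all.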
